A study of Mus musculus with 18 samples.

Results

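The chains of the receptors for IL-10, IFN-γ and type I interferon were followed in RNA-seq counts of regulatory T cells (Tregs) that had or lacked CD25, the α chain of the IL-2 receptor. The 6 genes were taken by symbol from the 50600 genes of the count table, and all 6 passed the filter on low counts in every comparison. They are *Il10ra* and *Il10rb* (IL-10 receptor), *Ifngr1* and *Ifngr2* (IFN-γ receptor), and *Ifnar1* and *Ifnar2* (type I interferon receptor).

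The 18 libraries came from FACS-purified C57BL/6 Tregs of individual mice. Thymic Tregs were sorted at 3–4 weeks of age from 5 CD25cKO mice, in which Cre made from the *Foxp3* locus deletes a floxed *Il2ra* and which had been "cured" of autoimmunity by WT splenocytes given intravenously after birth, and from 5 Foxp3/RFP reporter mice with intact CD25. Splenic Tregs were sorted from 4 mice with floxed *Il2ra*, Foxp3eGFP-Cre-ERT2 and an R26 YFP reporter and from 4 reporter controls with intact CD25, all given tamoxifen at 7–10 weeks of age and harvested 10–14 days later. Both kinds of CD25-deficient sample are called CD25 KO, and the controls WT. The thymic KO mice differed from their controls in the neonatal cell transfer and in the reporter allele of *Foxp3* as well as in *Il2ra*. In the spleen deletion was induced in mature Tregs, and YFP, switched on by the same Cre, marked the cells.

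These receptors belong to the class II cytokine receptor family. Each pairs a chain that binds the ligand with high affinity with a partner chain, and each chain carries a Janus kinase on its cytoplasmic tail. JAK1 and TYK2 serve the IL-10 receptor, where STAT3 is the main transcription factor. JAK1 and JAK2 serve the IFN-γ receptor, and JAK1 and TYK2 serve the type I interferon receptor, where STAT2 joins IRF9. In Tregs, IL-10 signaling is known to sustain suppressive function during inflammation, and type I interferon and IFN-γ can restrain or redirect Treg function.

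Of the 6 genes, 4 lie side by side on mouse chromosome 16 (GRCm38), all on the plus strand. In order they are *Ifnar2* (chr16:91372783-91405589), *Il10rb* (chr16:91406164-91425834), *Ifnar1* (chr16:91485238-91507441) and *Ifngr2* (chr16:91547072-91565623), within 192.8 kb. Only 0.57 kb separates *Ifnar2* from *Il10rb*. *Il10ra* lies apart on chromosome 9 (chr9:45253837-45269149, minus strand) and *Ifngr1* on chromosome 10 (chr10:19591949-19610229, plus strand). A read-through gene annotated across *Ifnar2* and *Il10rb*, *Gm21970*, shares 315 exonic bases with *Ifnar2* and 569 with *Il10rb* and had 0 counts in every library. Reads in those shared bases may not have been assigned, so the levels of *Il10rb* and *Ifnar2* may be understated in all groups.

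The promoters of 3 chains that differed between genotypes in the spleen, *Ifngr1*, *Ifngr2* and *Ifnar1*, are shown because they differ in base composition although the products work in related receptors. Each holds 300 bases around the RefSeq start site in GRCm38.p6, most of them upstream, 5′ to 3′ on the plus strand. Capitals mark GGGCGG, the GC box bound by Sp1 family factors, on either strand.
*Ifngr1*, chr10:19591699-19591998: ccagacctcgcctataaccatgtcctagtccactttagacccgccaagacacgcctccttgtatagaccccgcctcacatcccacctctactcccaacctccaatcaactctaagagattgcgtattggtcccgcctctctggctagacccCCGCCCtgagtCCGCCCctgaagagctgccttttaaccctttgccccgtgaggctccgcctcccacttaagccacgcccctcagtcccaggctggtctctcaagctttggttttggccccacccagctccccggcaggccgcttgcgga
*Ifngr2*, chr16:91546809-91547108: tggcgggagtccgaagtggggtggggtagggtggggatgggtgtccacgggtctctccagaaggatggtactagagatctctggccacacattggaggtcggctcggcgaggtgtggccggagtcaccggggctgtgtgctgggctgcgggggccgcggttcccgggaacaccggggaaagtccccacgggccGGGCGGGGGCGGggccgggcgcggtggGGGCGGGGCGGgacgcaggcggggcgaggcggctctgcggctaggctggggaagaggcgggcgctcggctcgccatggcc
*Ifnar1*, chr16:91484965-91485264: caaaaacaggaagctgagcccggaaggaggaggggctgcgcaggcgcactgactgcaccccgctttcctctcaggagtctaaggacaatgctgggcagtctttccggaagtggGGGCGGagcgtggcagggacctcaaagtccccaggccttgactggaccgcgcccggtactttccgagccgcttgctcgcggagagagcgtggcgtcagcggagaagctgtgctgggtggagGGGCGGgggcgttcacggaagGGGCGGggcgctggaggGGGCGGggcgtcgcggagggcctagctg

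The RefSeq table used held promoters for these genes and for *Ifnar2*, and no entry for *Il10ra* or *Il10rb*. The GC box occurred 4 times each in *Ifngr2* and *Ifnar1*, with neighbouring copies in *Ifngr2* adjoining or sharing a base, 2 times in *Ifngr1* and 1 time in *Ifnar2*. It was found at least once in 35.7% of 32851 RefSeq promoters of the same length. GC content was 74.3% in *Ifngr2*, 68.3% in *Ifnar1*, 60.3% in *Ifngr1* and 57.0% in *Ifnar2*, against a median of 52.7%. The palindrome TTCNNNGAA, the core of STAT3 sites, matched 1 time in *Ifnar1* and 1 time in *Ifnar2* and is found in 8.30% of promoters. It matched neither *Ifngr1* nor *Ifngr2*, and neither match overlapped a GC box. These matches describe the windows only.

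Total counts were 17239774 to 23993674 per thymic and 25258341 to 32639570 per splenic library, so 3 counts corresponded to at most 0.174 CPM, the count scaled to library size. Levels are CPM after TMM scaling over all 18 libraries, and values for one gene against another are RPKM, which also divides by exonic length. In the KO groups *Il2ra* fell to a mean of 162 from 613 CPM in the thymus and to 186 from 524 CPM in the spleen (adjusted p = 0.00239 and 1.39e-09 by edgeR). Thymic KO mice 2 and 4 kept the most *Il2ra* RNA (280 and 234 CPM, against 95.8 to 105 in the other 3). The paper states that the *Il2ra* RNA left in CD25 KO Tregs lacks exon 4, which it shows for peripheral Tregs, so that no functional CD25 is made. Counts of the whole gene do not measure functional CD25. *Foxp3*, which defines Tregs, was at 204 CPM or more in every library, but CD25 KO mice had less of it. Its log2 fold change was -0.74 for thymic Tregs (adjusted p = 0.00101 by edgeR). For splenic Tregs the *Foxp3* change was -0.55 (adjusted p = 6.9e-06 by edgeR). KO and WT ranges of *Foxp3* did not overlap for either tissue. Summed B cell markers (8 genes) ranged from 30.8 to 121 CPM and summed myeloid markers (8 genes) from 8.66 to 34.4 CPM, against 3720 to 5010 CPM for 8 Treg identity genes, and no gene of the first 2 lists was at 0 in all libraries of a group. Summed B cell markers were higher in splenic KO (110 to 121 CPM) than in splenic WT mice (76.8 to 93.2 CPM). Among 6 tested, 5 had a positive and 1 a negative log2 fold change, and *Cd22* and *Cd74* were called higher. Among 5 myeloid markers tested there, *Lyz2* was called higher, but 3 had a negative log2 fold change and the median was -0.23. The calls of *Cd74* and *Lyz2* were lost in 1 fit of all samples. No immature thymocyte marker was called in either comparison of genotypes, of 7 tested in thymic and 5 in splenic Tregs. The part of these cells in the results below was not tested.

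Per unit of transcript length, *Ifngr1* and *Ifnar1* were the most abundant chains in all 4 groups. In thymic WT Tregs the means were 81.9 RPKM for *Ifngr1*, 45.8 for *Ifnar1*, 26.7 for *Ifngr2*, 23.3 for *Ifnar2*, 9.84 for *Il10rb* and 7.12 for *Il10ra*. Only *Ifngr2* and *Ifnar2*, neighbours in that order, overlapped between mice. In splenic WT Tregs the order was *Ifngr1* (68.4 RPKM), *Ifnar1* (39.2), *Il10ra* (30.4), *Ifnar2* (24.8), *Il10rb* (14.8) and *Ifngr2* (11.3), with no overlap between neighbours. *Il10ra* thus stood last in the thymus and above 3 other chains in the spleen, and *Ifngr2* stood last in the spleen. The KO group of each tissue had the order of its WT group. In thymic KO Tregs the ranges of *Ifngr2* and *Ifnar2* overlapped, and in splenic KO Tregs those of *Ifnar1* and *Il10ra*.

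**Figure D1:**
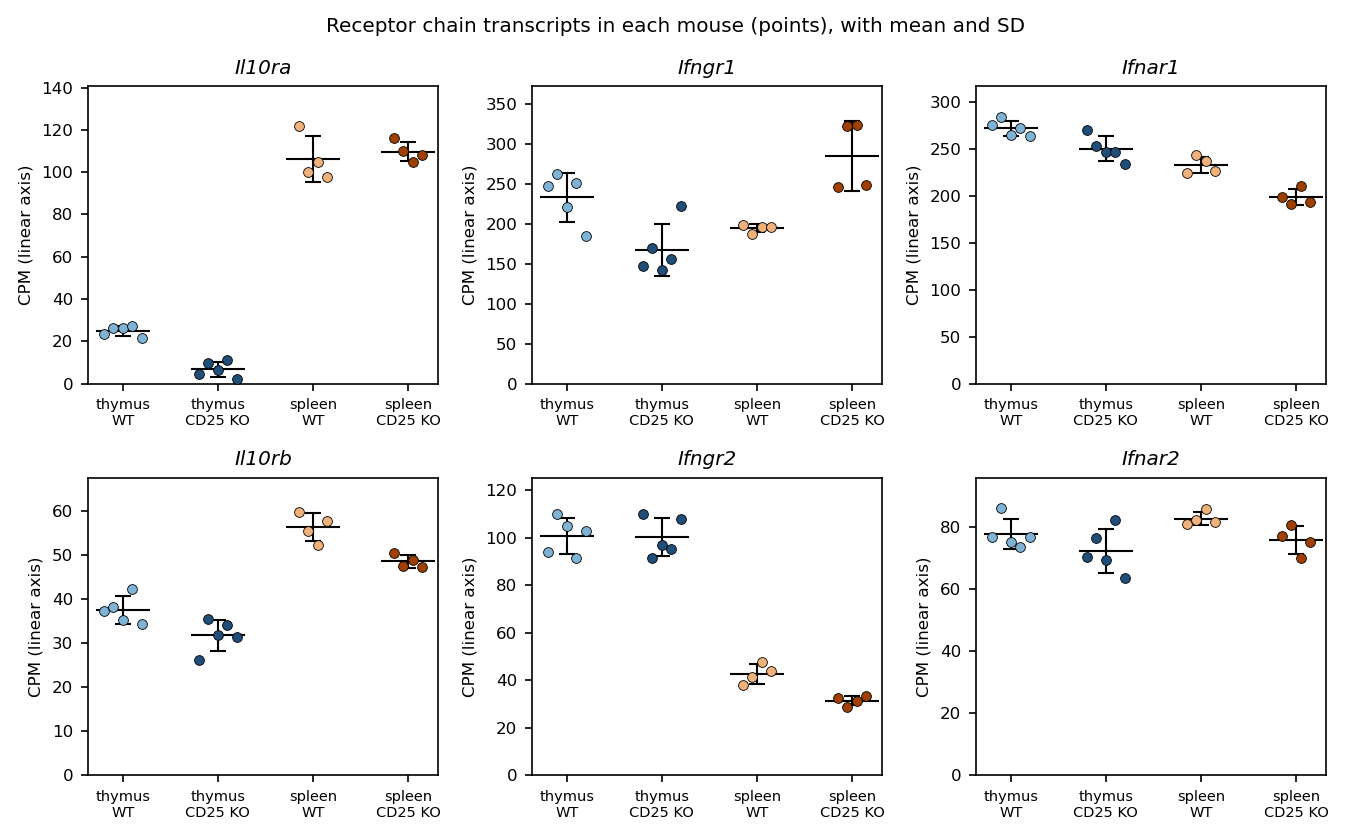
CPM of each receptor chain on a linear axis in every mouse (points) of the 4 groups, with the mean and SD of each group; the 2 chains of each receptor are drawn above each other. *Il10ra* was lower in all 5 thymic KO mice (2.36 to 11.1 CPM) than in thymic WT mice (21.6 to 27 CPM), and *Ifngr1* was higher in all 4 splenic KO mice (246 to 324 CPM) than in splenic WT mice (187 to 199 CPM).

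The first comparison asked which chains changed in developing thymic Tregs that lacked CD25. *Il10ra* fell to 27.5% of its WT level, and none of the other 5 chains passed the test. *Il10ra* encodes the chain that binds IL-10 and is the chain found mainly on blood cells. Its level was 23.5, 26.3, 26.2, 27 and 21.6 CPM in WT mice 1 to 5 and 4.4, 9.49, 6.26, 11.1 and 2.36 CPM in KO mice 1 to 5. The groups did not overlap, and the highest KO values were those of mice 2 and 4, which also had the most *Il2ra* RNA of the KO mice. The log2 fold change was -1.86 (SE 0.302, 95% confidence interval -2.51 to -1.21, n = 5 against 5, adjusted p = 0.00266 by the quasi-likelihood test of edgeR, adjusted after Benjamini and Hochberg). Without KO mice 2 and 4 it was -2.51 (adjusted p = 4.67e-05 by the same edgeR test). As these mice had the highest *Il10ra* of the KO group, leaving them out had to enlarge the fall, so this fit is not separate support. Hence 1 of the 6 chains was called at FDR < 0.01, where 6.16% of the 16986 genes tested were called in either direction. Fewer cells expressing *Il10ra* and less *Il10ra* RNA per cell cannot be told apart in bulk RNA, and the same holds for each result below.

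*Il10rb*, the widely expressed partner that the receptors for IL-22 and IFN-λ also use, was not called. Its thymic level was 34.4 to 42.4 CPM in WT and 26.1 to 35.5 CPM in KO mice, which overlapped. The log2 fold change was -0.22 (95% confidence interval -0.42 to -0.03, adjusted p = 0.0915 by edgeR), so a fall larger than 0.42 on the log2 scale lay outside the interval. Per unit length, the ratio of *Il10ra* to *Il10rb* was 0.725 ± 0.0545 (SD, n = 5) in thymic WT and 0.225 ± 0.105 (SD, n = 5) in thymic KO Tregs, and the ranges (0.684 to 0.809 and 0.0821 to 0.356) did not overlap.

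*Ifngr1*, the chain that binds IFN-γ, was 247, 262, 221, 251 and 185 CPM in thymic WT and 147, 170, 142, 156 and 222 CPM in thymic KO mice 1 to 5. Of the KO mice, 4 lay below all WT mice and KO mouse 5 lay within their range. The log2 fold change of -0.46 (SE 0.125, adjusted p = 0.0226 by edgeR) missed the threshold with all mice. Without KO mouse 5 it was -0.58 and passed (adjusted p = 0.00341 by edgeR), and it also passed with DESeq2 (adjusted p = 0.0047).

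The remaining 3 thymic chains did not pass the test. *Ifngr2*, the signaling partner of *Ifngr1*, averaged 101 ± 7.68 CPM in WT and 100 ± 8.06 CPM in KO (SD, n = 5 each), and the interval of its log2 fold change was -0.13 to 0.15. *Ifnar1* averaged 272 ± 8.48 and 251 ± 13.5 CPM, with a log2 fold change of -0.10 (adjusted p = 0.132 by edgeR). *Ifnar2*, the chain that binds type I interferon with the higher affinity, averaged 77.7 ± 4.89 and 72.3 ± 7.1 CPM, with a log2 fold change of -0.09 (adjusted p = 0.399 by edgeR). The intervals of *Ifnar1* and *Ifnar2* reached no lower than -0.24.

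The second comparison asked which chains changed when CD25 was deleted in mature splenic Tregs. Here *Ifngr1* rose to 147% of its WT level while its partner *Ifngr2* fell to 73.8% and *Ifnar1* to 85.6%, and *Il10ra* was not called. In all, 3 of the 6 chains were called at FDR < 0.01, 1 higher and 2 lower, where 9.45% of the 17463 genes tested were called in either direction.

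*Ifngr1* was 199, 187, 196 and 196 CPM in splenic WT and 246, 322, 324 and 248 CPM in splenic KO mice 1 to 4. All 4 KO mice exceeded all WT mice, and the KO mice fell into a higher and a lower pair. The log2 fold change was 0.55 (SE 0.0822, 95% confidence interval 0.38 to 0.73, n = 4 against 4, adjusted p = 0.000237 by edgeR).

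*Ifngr2* moved the other way. It was 37.8, 41.3, 47.6 and 44 CPM in WT and 32.3, 28.6, 31.4 and 33.4 CPM in KO mice, again with no overlap. Its log2 fold change was -0.44 (SE 0.074, 95% confidence interval -0.59 to -0.28, adjusted p = 0.00067 by edgeR). Per unit length the ratio of *Ifngr1* to *Ifngr2* was 6.97, 6, 5.45 and 5.9 in WT and 10.1, 14.9, 13.7 and 9.82 in KO mice. Its mean was 6.08 ± 0.64 and 12.1 ± 2.54 (SD, n = 4 each), and every KO mouse lay above every WT mouse. In the thymus the same ratio was 3.08 ± 0.515 in WT and 2.21 ± 0.385 in KO Tregs (SD, n = 5 each), and the ranges overlapped.

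*Ifnar1* was 225, 244, 237 and 227 CPM in splenic WT and 199, 192, 211 and 194 CPM in splenic KO mice. The groups did not overlap, but the change was small, with a log2 fold change of -0.22 (SE 0.0494, 95% confidence interval -0.33 to -0.12, adjusted p = 0.00485 by edgeR). The call was kept in 3 of 8 fits that each left out 1 mouse. It was lost without WT mouse 2, 3 or 4 (adjusted p = 0.026, 0.0195 and 0.0121 by edgeR) and without KO mouse 2 or 4 (adjusted p = 0.0158 and 0.0168 by edgeR), at log2 fold changes of -0.24 to -0.20. *Ifnar2* was 81 to 85.9 CPM in WT and 69.9 to 80.6 CPM in KO mice, and its log2 fold change of -0.13 did not pass (adjusted p = 0.13 by edgeR). The ratio of *Ifnar1* to *Ifnar2* per unit length was 1.58 ± 0.0549 in WT and 1.48 ± 0.149 in KO Tregs (SD, n = 4 each), with overlapping ranges.

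In contrast to the thymus, *Il10ra* was 122, 100, 105 and 97.7 CPM in splenic WT and 116, 110, 105 and 108 CPM in splenic KO mice. The KO values lay within the WT range. *Il10ra* had a log2 fold change of 0.05 (95% confidence interval -0.09 to 0.19, adjusted p = 0.669 by edgeR). *Il10rb* was 52.4 to 59.8 CPM in WT and 47.3 to 50.5 CPM in KO mice, which did not overlap, and its log2 fold change of -0.22 (adjusted p = 0.0147 by edgeR) missed the threshold. It passed with upper-quartile scaling (adjusted p = 0.00901 by edgeR) and with DESeq2 (adjusted p = 0.00536). The ratio of *Il10ra* to *Il10rb* per unit length was 1.84 to 2.21 in WT and 2.35 to 2.52 in KO mice.

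**Figure D2:**
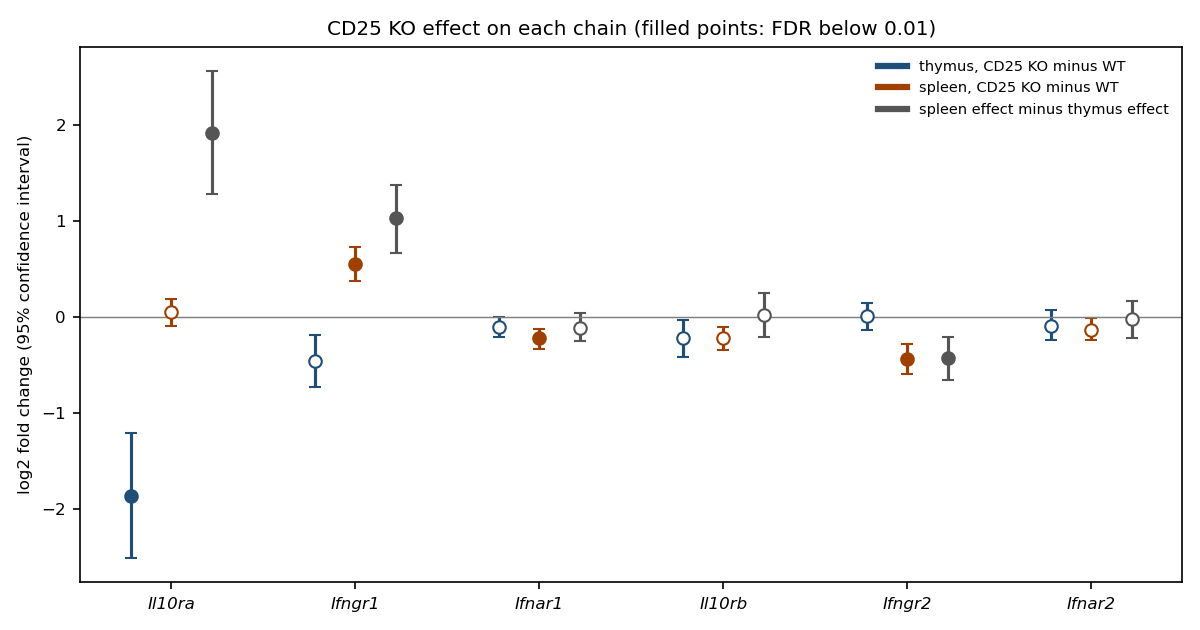
Log2 fold change of each chain in thymic (blue) and splenic (brown) CD25 KO against WT Tregs, and the splenic effect minus the thymic effect (grey), with 95% confidence intervals; filled points passed FDR < 0.01. The values were -1.86 (thymus) and 0.05 (spleen) for *Il10ra*, and -0.46 and 0.55 for *Ifngr1*.

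Whether the effect of CD25 loss differed between the tissues was tested as 1 interaction over all 18 libraries. It did for 3 of the 6 chains, where 6.98% of 18686 genes were called. The splenic effect exceeded the thymic effect for *Il10ra* by 1.92 on the log2 scale (SE 0.308, adjusted p = 0.000319 by edgeR) and for *Ifngr1* by 1.03 (SE 0.171, adjusted p = 0.000445 by edgeR). For *Ifngr2* it was lower, at -0.43 (SE 0.106, adjusted p = 0.00901 by edgeR). The *Ifngr2* value lay just inside the threshold and was lost in 11 of 18 fits that each left out 1 mouse, with adjusted p up to 0.0216 by edgeR. Those mice were thymic WT mice 1, 4 and 5, thymic KO mice 1 and 5, splenic WT mice 2, 3 and 4 and splenic KO mice 1, 2 and 3, and the log2 difference then ranged from -0.45 to -0.38. *Il10rb*, *Ifnar1* and *Ifnar2* did not pass, and the intervals of their differences were -0.21 to 0.25, -0.25 to 0.04 and -0.22 to 0.17. The tissues differ in mouse model, age, tamoxifen and the date in the column names of the count table as well as in site, which cannot be told apart.

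Between WT Tregs of the 2 tissues, 4 of the 6 chains were called, where 40.4% of 18686 genes were. *Il10ra* was 4.26-fold higher in the spleen (log2 difference 2.09, SE 0.208, adjusted p = 5.54e-08 by edgeR) and *Il10rb* 1.5-fold higher (0.59, adjusted p = 1.96e-06 by edgeR). *Ifngr2* was 2.36-fold lower (log2 difference -1.24, SE 0.0769, adjusted p = 4.61e-11 by edgeR) and *Ifnar1* 1.17-fold lower (-0.23, adjusted p = 0.000654 by edgeR). *Ifngr1* (-0.26, adjusted p = 0.0776 by edgeR) and *Ifnar2* (0.09, adjusted p = 0.271 by edgeR) were not called. The same differences of model, age, tamoxifen and date apply.

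**Figure D3:**
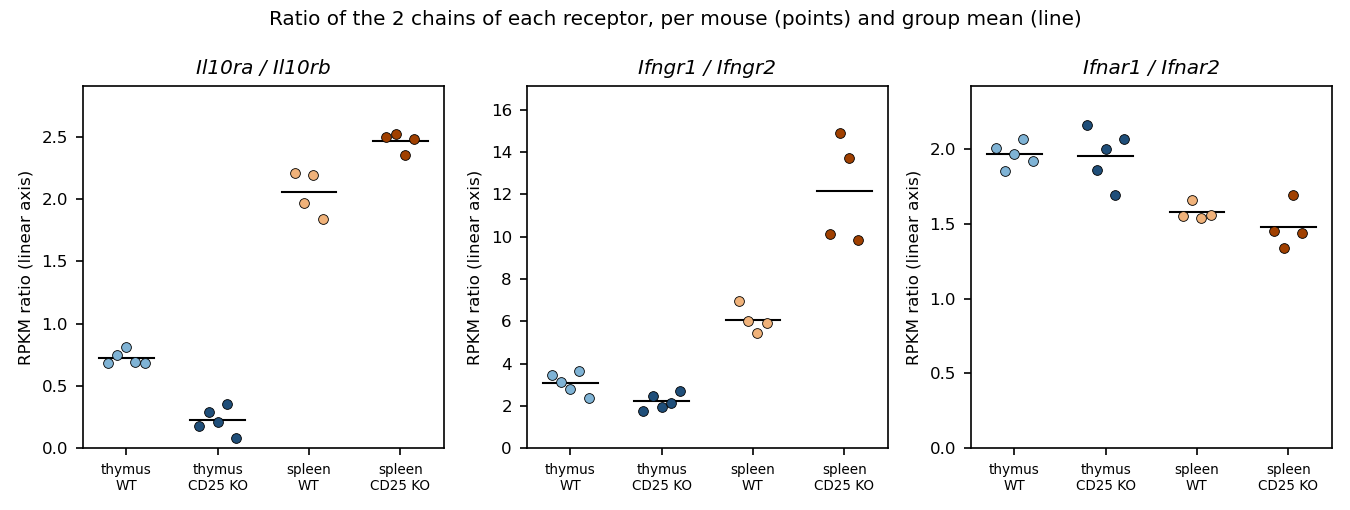
Ratio of the RPKM values of the 2 chains of the IL-10, IFN-γ and type I interferon receptors on linear axes, for each mouse (points) with the group mean (line). The ratio of *Ifngr1* to *Ifngr2* was 9.82 to 14.9 in splenic KO mice and 5.45 to 6.97 in splenic WT mice, and the ratio of *Ifnar1* to *Ifnar2* overlapped between genotypes in both tissues.

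The ligands were read from the same cells. *Il10* was 4.88, 2.42, 2.61 and 2.68 CPM in splenic WT and 15.8, 11, 9.78 and 14.4 CPM in splenic KO mice, a log2 fold change of 2.02 (SE 0.206, adjusted p = 7.33e-06 by edgeR). *Ifng* was 3.18, 2.86, 2.48 and 2.17 CPM in splenic WT and 5.93, 5.7, 6.14 and 7.69 CPM in splenic KO mice, a log2 fold change of 1.25 (SE 0.156, adjusted p = 4.54e-05 by edgeR). Both ligands were higher in every splenic KO mouse than in any WT mouse. In the thymus *Il10* (0 to 15 counts per library) and *Ifng* (0 to 7 counts) were too low to be tested. Of 14 ligands of the family listed, 1 could be tested in thymic and 3 in splenic Tregs. *Il10* and *Ifng* were the 2 called, both higher in the spleen, where 5.9% of all genes tested were called higher. Of 6 further class II receptor genes, only *Il20rb*, a chain of the receptors for IL-19, IL-20 and IL-24, could be tested, and it was not called in either tissue. *Ifnlr1*, the specific chain of the IFN-λ receptor, had at most 5 counts in any library.

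For the kinases and STATs the number of calls was near the background. In the thymus none of 6 passed with edgeR, where 6.16% of all genes tested were called. There *Jak2* and *Stat3* had an unadjusted p under 0.05 by edgeR, and both passed with DESeq2. The median log2 fold change there was -0.03 against 0 over all genes tested. In the spleen 1 of 6 passed, where 9.45% of all genes tested were called, and the median was -0.01, equal to that of all genes. *Jak2*, which binds the *Ifngr2* chain, was 217 to 233 CPM in splenic WT and 290 to 330 CPM in splenic KO mice (log2 fold change 0.48, adjusted p = 2.15e-05 by edgeR). The splenic groups did not overlap. *Jak1*, *Tyk2*, *Stat2* and *Irf9* were within 0.10 of 0 on the log2 scale in both tissues, with adjusted p of 0.314 or more by edgeR. The log2 fold change of *Stat3* was -0.22 for thymic Tregs (adjusted p = 0.0161 by edgeR) and 0.12 for splenic Tregs (adjusted p = 0.142 by edgeR), and these effects differed from each other by 0.35 (adjusted p = 0.00493 by edgeR).

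Of 8 negative regulators of these receptors, 3 fell in the thymus and none rose, where 2.99% of all genes tested were called lower and 3.17% higher. They were *Socs1* (-0.92, adjusted p = 1.28e-05 by edgeR), a JAK inhibitor that is strongest on IFN-γ signaling, *Socs3* (-0.80, adjusted p = 0.000461 by edgeR), an inhibitor of gp130 cytokine signaling that STAT3 induces, and the phosphatase *Ptpn1* (-0.38, adjusted p = 0.00609 by edgeR), whose call was lost after GC correction. In the spleen *Socs1* fell (-0.45, adjusted p = 0.000173 by edgeR) and the phosphatase *Ptpn11* rose (0.49, adjusted p = 3.17e-05 by edgeR). Of all genes tested in the spleen, 3.55% were called lower and 5.9% higher. Over the list the median log2 fold change was -0.20 for thymic and 0 for splenic Tregs, against 0 and -0.01 over all genes tested. *Socs1* was 53 to 59.5 CPM in thymic WT against 25.6 to 32.2 CPM in thymic KO mice, and 74.6 to 84.4 against 52.6 to 64.9 CPM in the spleen, so it was lower in every KO mouse of both tissues.

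Genes known to respond to interferons showed few calls between genotypes. Of IFN-γ response genes, 1 of 18 rose in the thymus (*Irf1*, 0.34, adjusted p = 0.00811 by edgeR) and 1 of 19 in the spleen (*Cxcl10*, a chemokine, 1.08, adjusted p = 2.97e-06 by edgeR), and none fell. With 5.9% of all splenic genes called higher and 3.17% of thymic genes, these counts lie near the background. The median log2 fold change of this list was 0.1 in thymic and 0.09 in splenic Tregs, against 0 and -0.01 over all genes tested. In the thymus 11 of its genes had a positive and 5 a negative value, and in the spleen 15 and 3. These directions were not tested. *Cxcl10* was 10.1 to 14.8 CPM in splenic WT and 26.1 to 28.1 CPM in splenic KO mice. Of 22 type I interferon response genes, *Ifit2* rose (0.40, adjusted p = 0.00668 by edgeR) and *Oas3* fell (-0.65, adjusted p = 0.00756 by edgeR) in the thymus, and *Oas1a* (0.38, adjusted p = 0.0032 by edgeR) and *Ifih1* (0.28, adjusted p = 0.0024 by edgeR) rose in the spleen. Both thymic calls were lost after correction for GC content and without KO mice 2 and 4, and both splenic calls in 1 fit of all samples. The median of the type I list was 0.05 in thymic and 0.1 in splenic Tregs. Its values were positive for 14 and negative for 8 genes in the thymus, and for 17 and 5 in the spleen. Between WT Tregs of the tissues, 18 of these 22 genes were lower and 1, *Oas1a*, was higher in the spleen. Of the 19 IFN-γ response genes, 13 were called higher there and 0 lower. Of all genes tested in that contrast, 19.5% were called lower and 21% higher.

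Of 9 genes listed as IL-10 and STAT3 responses, 4 fell in the thymus, where 2.99% of all genes tested were called lower. They were *Nfil3* (-1.42, adjusted p = 0.00687 by edgeR), *Socs3* (counted above), *Ddit4*, an mTORC1 inhibitor (-0.68, adjusted p = 0.00704 by edgeR), and *Il4ra* (-0.46, adjusted p = 0.00213 by edgeR). In the spleen *Etv3* (-0.30, adjusted p = 0.00041 by edgeR), *Ddit4* (-0.41, adjusted p = 0.000604 by edgeR) and *Il4ra* (-0.40, adjusted p = 0.00122 by edgeR) fell and *Nfil3* rose (1.04, adjusted p = 1.29e-05 by edgeR), where 3.55% of all genes were called lower and 5.9% higher. The median log2 fold change of the list was -0.46 in thymic and 0.11 in splenic Tregs, against 0 and -0.01 over all genes tested. The thymic call of *Ddit4* was lost after GC correction and without KO mice 2 and 4, and its splenic call in 1 fit of all samples. The transcription factor *Nfil3* was 3.1 to 4.97 CPM in thymic WT and 0.735 to 2.4 CPM in thymic KO mice, and 12.1 to 16.6 against 25.5 to 34.2 CPM in the spleen. Several of these genes also respond to other cytokines, IL-2 among them. Of the 10 fits of thymic Tregs that each left out 1 mouse, the call of *Irf1* was lost in 9, those of *Nfil3*, *Ifit2* and *Oas3* in 7 each and those of *Ddit4* and *Ptpn1* in 6 each. Of the 8 such fits of splenic Tregs, *Il13ra1* was lost in 4, *Oas1a* in 2 and *Ifih1* in 1.

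The class I cytokine receptors, to which the IL-2 receptor itself belongs, give a comparison outside the family. Of 15 tested in the thymus, where 6.16% of all genes were called, 3 fell, *Il9r* (-1.89, adjusted p = 0.00266 by edgeR), *Il2rb* (-0.79, adjusted p = 0.00201 by edgeR) and *Il4ra*. Of 13 tested in the spleen, where 9.45% of all genes were called, *Il6ra* (-0.46, adjusted p = 4.98e-05 by edgeR) and *Il4ra* fell and *Il13ra1* rose (0.81, adjusted p = 0.00389 by edgeR). The splenic calls of *Il6ra* and *Il13ra1* were lost in 1 fit of all samples. The thymic change of *Il9r* was close to that of *Il10ra* in size, and its splenic value, -0.05, was not called either (adjusted p = 0.763 by edgeR). The *Il9r* effects of the tissues differed by 1.84 on the log2 scale (adjusted p = 0.000388 by edgeR).

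Markers of Treg state also differed between genotypes. The study chose its central and effector Treg markers from these samples, so their counts are not independent evidence of direction. Effector markers fell for 6 of 9 in the thymus, where 2.99% of all genes tested were called lower. They rose for 10 of 10 in the spleen, where 5.9% of all genes tested were called higher. Their summed level was 466 to 709 CPM in thymic WT and 219 to 742 CPM in thymic KO mice, which overlapped. A sum weights the abundant markers. *Mki67*, a proliferation gene not called in the thymus, alone made up 197 to 455 CPM in thymic WT and 69 to 506 CPM in thymic KO mice. The summed level of the effector markers was 575 to 639 CPM in splenic WT and 1010 to 1140 CPM in splenic KO mice. *Il10* is 1 of the 10. Central markers were called for none of 4 in the thymus, where 6.16% of all genes tested were called. They fell for 4 of 4 in the spleen, where 3.55% of all genes tested were called lower. Their splenic sum was 1080 to 1330 CPM in WT and 656 to 771 CPM in KO mice. The part of this shift in the changes of the receptor chains was not tested.

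The genes whose pattern over the 18 libraries lay closest to each called chain were found among 10687 protein-coding genes by the root mean square difference of centred log2 CPM. For *Il10ra* these were *Axl* (0.411), *D630039A03Rik* (0.417), *Ncmap* (0.431), *Pear1* (0.436) and *Zdhhc2* (0.44). For *Ifngr1* they were *Cep19* (0.17), *Serpinb6b* (0.209), *Sdf4* (0.215), *Ndufa1* (0.22) and *Lamtor5* (0.221). For *Ifngr2* they were *Pik3c2b* (0.119), *Ramp1* (0.126), *Bach2* (0.138), *Ccr7* (0.139) and *Slc25a23* (0.139), and for *Ifnar1* they were *Sbf1* (0.055), *Kansl3* (0.0552), *Ttll4* (0.0671), *Tecpr1* (0.0715) and *Hectd4* (0.0716). *Bach2* and *Ccr7* are known as genes of resting T cells, though *Pik3c2b* and *Ramp1* lay closer to *Ifngr2*. The distance covers both tissues, so differences between the tissues enter it as well as those between genotypes. A link between these genes and the chains was not tested. None of the other chains was among these 5 closest genes of any of the 4.

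In the spleen the log2 fold changes of the 4 chains clustered on chromosome 16 were -0.13 for *Ifnar2*, -0.22 for *Il10rb*, -0.22 for *Ifnar1* and -0.44 for *Ifngr2*, all negative, and in the thymus they were -0.09, -0.22, -0.10 and 0.01. Between WT Tregs of the tissues, *Il10rb* was higher and *Ifngr2* lower in the spleen. Of the other genes listed in the cluster, the noncoding *A930006K02Rik* was 5.42 to 7.94 CPM in thymic WT and 9.53 to 11 CPM in splenic WT mice, and *Gm7856*, *Gm7860* and *Mir6367* were at a mean of 0.934 CPM or less in every group.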

How the data were processed

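RNA from sorted Tregs (25 ng per library) was prepared with a ribosomal RNA depletion kit. The authors aligned reads to GRCm38 with STAR (2.5.0b in the submitters' processing notes), counted them on GENCODE M13 genes with featureCounts 1.5.0 and deposited raw counts. Whether counting used strand is not given in the sources used here. Symbols and exonic lengths were taken from GENCODE M21 (same build; 50376 of 50600 identifiers matched).

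Genotypes were compared separately in thymus and spleen with edgeR 4.0.16 (R 4.3.3): filterByExpr, TMM, quasi-likelihood test, Benjamini-Hochberg adjustment over all genes tested, FDR < 0.01. The difference between tissues and the WT contrast used all 18 samples. The paper's methods name DESeq2, run here (1.42.0) as an alternative. CPM are TMM-scaled. The scripts were tested on simulated data. Other alternatives were RLE and upper-quartile scaling, other filters, FDR < 0.05, GC correction, 1 fit of all samples, the mouse number as a block and leaving out mice.

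The members and lists were chosen with earlier results of these data known. Named genes were the 6 chains, *Il2ra*, *Foxp3*, *Jak1*, *Jak2*, *Tyk2*, *Stat2*, *Stat3*, *Irf9*, *Il10*, *Ifng*, *Ifnlr1*, at most 4 called genes per list and direction by size of change, the 5 genes most like each called chain (mean log2 CPM of at least 1), and genes between chains on a shared chromosome. *Il20rb* and *Mki67* are named outside this rule, after their values were seen. A further gene, left out of the kinase and STAT list, is not reported here. Confidence intervals cover the spread between mice, and the floor of 3 counts covers counting error only.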

Additional observations from a re-analysis of the deposited data

Results flagged for a closer look

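The effect of CD25 loss differed between the tissues for 3 chains by a test of the difference itself. On the log2 scale the splenic minus the thymic effect was 1.92 for *Il10ra*, 1.03 for *Ifngr1* and -0.43 for *Ifngr2*. In the thymus 5 of 5 KO mice had less *Il10ra* than any WT mouse, and in the spleen the KO values lay within the WT range. For *Ifngr1*, 4 of 5 thymic KO mice lay below all WT mice and 4 of 4 splenic KO mice above them. In 36 tests of levels and chain ratios within groups, 2 single mice stood apart by Dixon's test, where chance gives about 1 in 20. Thymic WT mouse 2 had the highest *Ifnar2* (86.1 CPM), with a gap of 0.742 of the group's range to the next mouse. Splenic WT mouse 2 had the highest ratio of *Ifnar1* to *Ifnar2* (1.66), with a gap of 0.874 of the range.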

How the results depend on the processing

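*Il10ra* in the thymus, *Ifngr1* and *Ifngr2* in the spleen, and the tissue differences of *Il10ra* and *Ifngr1* kept their call and direction under every alternative run, and no call reversed. Leaving out 1 mouse gave -2.12 to -1.64 for thymic *Il10ra*, 0.49 to 0.62 for splenic *Ifngr1*, -0.58 to -0.40 for thymic *Ifngr1*, -0.25 to -0.20 for splenic *Ifnar1* and -0.49 to -0.38 for the tissue difference of *Ifngr2*. Thymic *Ifngr1* passed with DESeq2 (-0.45), with all 18 samples in 1 fit (-0.48) and at FDR < 0.05 (-0.46). Splenic *Il10rb* passed with upper-quartile scaling (-0.25), DESeq2 (-0.22) and FDR < 0.05 (-0.22). The tissue difference of *Ifngr2* was lost with no filter (-0.43, adjusted p = 0.0101 by edgeR). Among the other named genes 1543 alternative values kept their side of the threshold, 106 lost a call and 32 gained one. Of the genes the report names, splenic *Il6ra*, *Il13ra1*, *Ddit4*, *Oas1a*, *Ifih1*, *Cd74* and *Lyz2* were lost in 1 fit of all samples, thymic *Ptpn1*, *Ifit2*, *Oas3* and *Ddit4* after GC correction, and the last 3 of these also without KO mice 2 and 4. The causes were not tested.

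Counts of called genes moved more. In the thymus 1047 became 2763 with DESeq2, 3951 at FDR < 0.05, 2881 in 1 fit of all samples, 2008 without KO mice 2 and 4 and 371 to 1087 without 1 mouse (371 to 428 without WT mouse 2, 3 or 5 or KO mouse 1 or 3). In the spleen 1651 became 3001 at FDR < 0.05, 795 in 1 fit of all samples and 1099 to 1723 without 1 mouse, lowest without WT mouse 3. For the difference 1305 became 2188 with DESeq2, 3149 at FDR < 0.05, 2307 without the 2 thymic mice and 817 to 1489 without 1 mouse, lowest without splenic KO mouse 2. Upper-quartile scaling shifted the thymic split from 539 higher and 508 lower to 808 and 440, and that of the difference from 840 and 465 to 616 and 669. The KO effect correlated with GC content across genes (Spearman rho -0.40 over 16945 thymic genes), and after GC correction thymic *Il10ra* was -1.78.

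With the thymic mouse number as a replicate block, 209 genes were called, thymic *Il10ra* was -2.01 (adjusted p = 0.00591 by edgeR), and none of the other 5 chains passed. Deviations of same-numbered mice correlated at -0.238 to 0.144, and only for mouse 1 was its own number the best match. These correlations were not tested, so they do not settle whether the numbers pair the mice. Splenic labels carry no such numbers.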
